A study of Mus musculus with 12 samples.

Results

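Prostaglandins and leukotrienes are made by a short chain of enzymes, and the 10 genes described here encode the enzymes of that chain together with the lipoxygenases that run beside it. They were chosen by name: the cyclooxygenases Ptgs1 and Ptgs2, the prostaglandin E synthase Ptges, the leukotriene genes Alox5, Alox5ap and Ltc4s, and the lipoxygenases Alox12, Alox15, Alox12b and Alox8. All 10 were found among the 52636 genes of the count table, and all 10 passed the filter on low counts that left 17993 genes for testing.

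Whole skin of female BALB/c mice was sequenced in 4 groups of 3 libraries, each from an independent sample. Control mice received vehicle, control + RAPA mice received rapamycin (RAPA, which blocks mTORC1, a kinase complex of cell growth), LL37 mice received LL37 (the active peptide of the human antimicrobial protein cathelicidin), and LL37 + RAPA mice received both. In the methods of the study, 8-week-old mice were shaved, and LL37 or vehicle was then injected into the dermis of the back repeatedly over 2 days. Rapamycin was given to BALB/c mice into the peritoneum each day, although the route is not named for the sequenced mice. The labels name no transgene or deletion, and human LL37 peptide injected over 2 days is an acute model. The comparisons ask how the skin of LL37 mice differs from that of control mice, and how much of that difference is present when mTORC1 is inhibited.

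Depth ran from 15734559 to 23271784 counts per library, so that 3 counts, the floor used here, correspond to 0.123 to 0.184 CPM (counts of a gene relative to the TMM-normalized total of its library). Floors cover counting error only. The tissue label held against its markers: Krt5, Krt14 and the other basal epidermis markers summed to between 12626 and 22116 CPM in every library. This sum was highest in LL37 skin. LL37 replicate 3 stood apart from LL37 replicates 1 and 2, with a mean chi-square per gene of 59.2 and 69.7 against them, where LL37 replicates 1 and 2 gave 21.5 with each other. It is named below wherever a result changes without it. Skeletal muscle markers summed to 31426 to 45715 CPM in control skin, 18.1 to 658 CPM in LL37 skin and 2600 to 5856 CPM in LL37 + RAPA skin, with 12 of 12 called lower in LL37 skin against control. Whether this shift in tissue makeup moved the genes below was not tested. In whole skin, fewer cells of a type and less RNA per cell cannot be told apart.

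Arachidonic acid is released from membranes by phospholipases A2. The cyclooxygenases turn it into prostaglandin H, from which terminal synthases such as the one encoded by Ptges make the individual prostaglandins, and prostaglandin E widens vessels and sensitizes nerves in inflamed skin. Along the other branch, 5-lipoxygenase, with the help of its activating protein, makes leukotriene A, the precursor of leukotriene B, which attracts neutrophils, and of leukotriene C, made by the Ltc4s product. Epidermal lipoxygenases use related fatty acids, and that of Alox12b is needed for the water barrier.

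The 250 bases before the start sites of Ptgs2, Ptges and Alox8 are shown because these 3 genes were called higher in LL37 skin against control and against LL37 + RAPA skin alike. They come from RefSeq on GRCm38.p6 and are written on the strand of the gene, and capitals mark matches to the C/EBP motif TTNCNNAA on either strand. The Ptgs2 window is chr1:150099781-150100030 on the plus strand, and 183 of its bases also lie in an exon of the antisense gene Ptgs2os, which had 0 to 9 counts per library. The Ptges window is chr2:30903298-30903547 on the minus strand and lies inside the span of longer Ptges transcripts, and the Alox8 window is chr11:69197844-69198093 on the minus strand.
Ptgs2: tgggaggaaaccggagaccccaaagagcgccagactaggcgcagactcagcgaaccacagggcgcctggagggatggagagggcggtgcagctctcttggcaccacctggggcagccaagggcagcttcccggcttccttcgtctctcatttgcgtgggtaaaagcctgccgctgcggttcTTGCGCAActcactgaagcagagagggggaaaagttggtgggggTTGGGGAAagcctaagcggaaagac
Ptges: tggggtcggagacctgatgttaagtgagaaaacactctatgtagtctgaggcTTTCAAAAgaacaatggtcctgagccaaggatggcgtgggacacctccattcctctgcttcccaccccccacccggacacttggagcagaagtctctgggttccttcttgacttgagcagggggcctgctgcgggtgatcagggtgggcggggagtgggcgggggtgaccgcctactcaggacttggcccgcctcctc
Alox8: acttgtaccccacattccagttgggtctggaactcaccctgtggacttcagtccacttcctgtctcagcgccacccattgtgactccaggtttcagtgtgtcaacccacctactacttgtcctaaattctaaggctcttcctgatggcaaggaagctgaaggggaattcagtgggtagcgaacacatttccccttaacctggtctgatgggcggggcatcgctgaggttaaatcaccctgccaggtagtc

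Promoter windows were found for 8 of the 10 genes, and those of Ptgs2, Ptges and Alox12 hold the C/EBP letters. Counted from the RefSeq start site, the matches lie at -69 to -62 and at -25 to -18 in Ptgs2 and at -198 to -191 in Ptges. Those start sites were not checked against mapped starts, and another start would move the positions. Of 32851 promoter windows of the same length, 36.8% hold these letters. The κB decamer, the AP-1 letters TGANTCA, the CRE letters TGACG and the HRE letters ACGTG, each searched on both strands, and the TATA letters TATAA, searched on the given strand, had no match in the 8 windows. These motifs occur in 7.25%, 6.75%, 17.8%, 16.6% and 16% of all windows, in that order. Bases outside the windows, including those after the RefSeq start, were not searched. The Alox12 window holds overlapping C/EBP matches at -104 to -96. Motifs were searched one at a time without regard to overlap, and a match is only a run of letters.

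A gene was called a DEG when its quasi-likelihood test in edgeR gave a Benjamini-Hochberg adjusted p under 0.05 over all 17993 genes and its log2 fold change exceeded 1 in size. In LL37 vs control, 4 of the 10 genes were called, all higher in LL37 skin, where 8.73% of all tested genes were called higher and 10.8% lower. Without the fold limit 5 of the 10 passed there (all genes 42.6%), 5 had an unadjusted p under 0.05 (50%), and 5 had no overlap between the groups (49.7%). Against LL37 + RAPA, 3 were called, all higher in LL37 skin, where 4.33% of all genes were called higher and 5.8% lower. Here 4 of the 10 passed without the fold limit (24.2%), 4 had an unadjusted p under 0.05 (38%), and 5 had no overlap (38.3%). Between LL37 + RAPA and control skin, 2 were called, both higher with LL37 + RAPA, where 6.49% of all genes were called, 2.15% higher and 4.35% lower. Without the fold limit 3 of the 10 passed (14%), 3 had an unadjusted p under 0.05 (27.4%), and 6 had no overlap (36.4%). Against control, the counts of LL37 skin by p alone and by overlap were thus near the share of all genes. In control + RAPA vs control, edgeR called 0 of the 10 and 0% of all genes. There, 1 of the 10 (Alox5ap) had an unadjusted p under 0.05, where 8.65% of all genes did, and DESeq2 called 0. The median log2 fold change of the 10 was 0.90 against control and 0.07 against LL37 + RAPA, where the medians over all genes were -0.0049 and -0.0042. The first 3 comparisons share libraries and are not independent of each other.

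**Figure D1:**
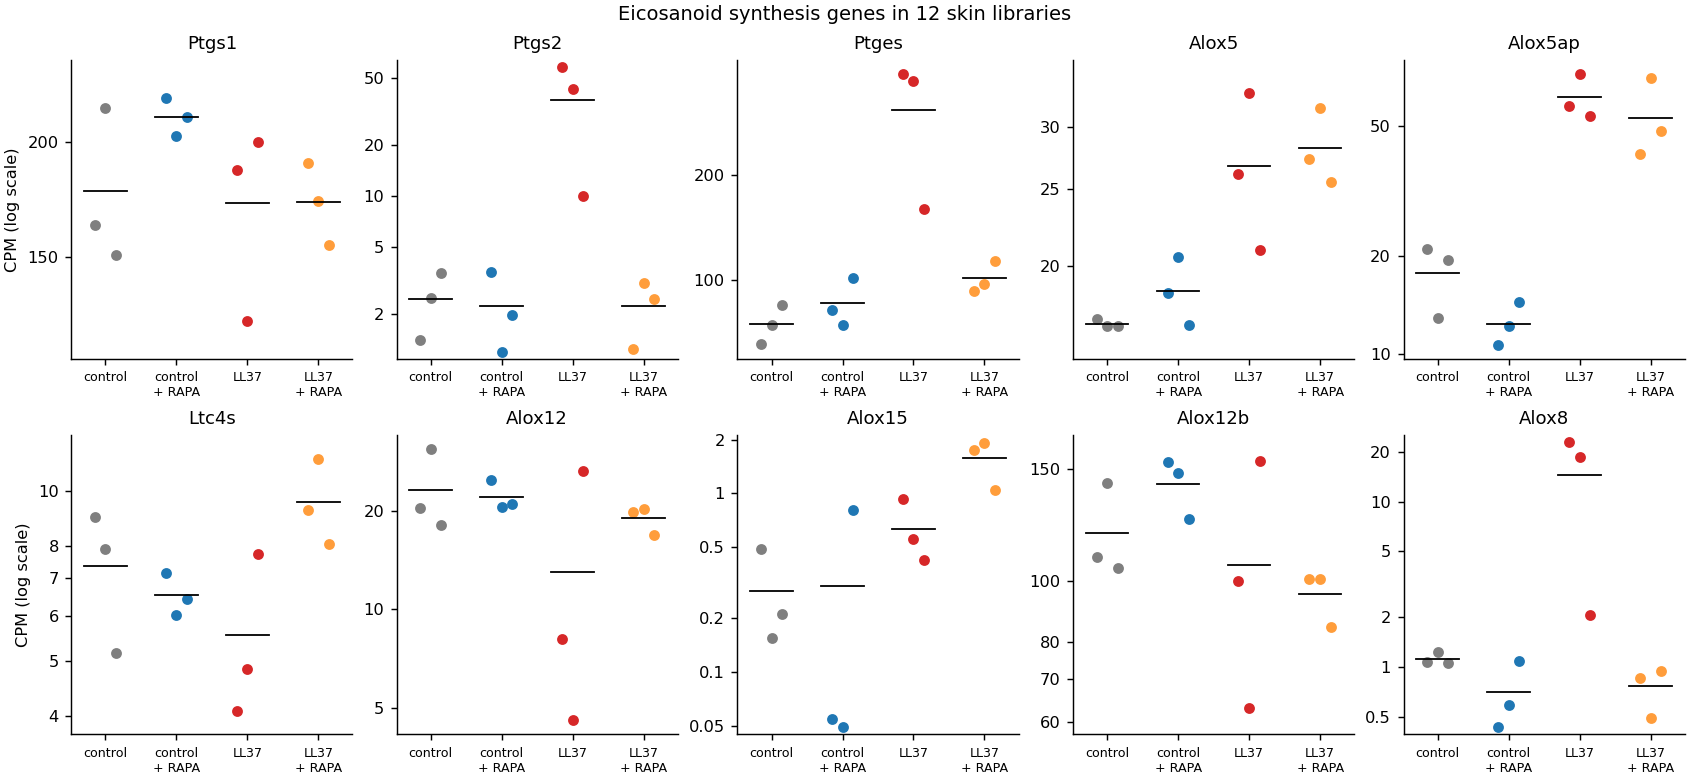
Level of the 10 genes in CPM on a log scale (vertical axis, with its own range for each gene) in the 4 groups. Points are libraries, drawn in the order of replicates 1, 2 and 3, and bars are group means. Ptgs2, Ptges and Alox8 were high in the 3 LL37 libraries only, with replicate 3 the lowest of them, whereas Alox5ap was high in LL37 and in LL37 + RAPA skin.

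The cyclooxygenases behaved differently from each other. Ptgs2 (ENSMUSG00000032487, chromosome 1, 150100031 to 150108227, plus strand, GRCm38), the inducible cyclooxygenase, stood at 1.40, 2.46 and 3.48 CPM in control skin and at 58.1, 43.3 and 9.99 CPM in LL37 skin. With RAPA it stood at 3.52, 1.19 and 1.96 CPM in control skin and at 1.23, 3.03 and 2.43 CPM in LL37 skin. Every LL37 library therefore lay above all libraries of the other 3 groups, and these other groups overlapped each other. The fitted log2 fold change was 3.92 in LL37 vs control (SE 0.63, adjusted p = 0.00055, edgeR), a 15.1-fold difference. It was 4.04 in LL37 vs LL37 + RAPA (SE 0.63, adjusted p = 0.0021, edgeR), and LL37 + RAPA vs control gave -0.12 with a 95% interval from -1.53 to 1.28. Without LL37 replicate 3 the first 2 values were 4.40 and 4.49.

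Ptgs1 (ENSMUSG00000047250, chromosome 2, 36230426 to 36252272, plus strand), the constitutive cyclooxygenase, stood at 163, 218 and 151 CPM in control skin and at 187, 128 and 200 CPM in LL37 skin. LL37 + RAPA skin held 190, 172 and 155 CPM, and control + RAPA skin 223, 203 and 213 CPM. Control, LL37 and LL37 + RAPA libraries overlapped each other, and no comparison passed the test. The interval of the log2 fold change in LL37 vs control ran from -0.42 to 0.33, and that in LL37 vs LL37 + RAPA from -0.38 to 0.37. The gene shares 148 exonic bases with Gm43621 on the other strand.

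Since the ratio of both genes within a library does not depend on normalization, Ptgs2 reads were also counted per 100 Ptgs1 reads. Control skin held 0.861, 1.13 and 2.30 of them, and control + RAPA skin held 1.58, 0.583 and 0.918. LL37 skin held 31.1, 33.8 and 4.99, and LL37 + RAPA skin held 0.650, 1.76 and 1.57. The lowest LL37 library was thus above the highest of the others. On the log2 scale, LL37 skin was higher than control skin by 3.72 and higher than LL37 + RAPA skin by 3.82, in 3 of 3 libraries each. Both differences had p = 0.1 in a two-sided exact permutation test, which is the smallest value that 3 against 3 libraries allow.

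Ptges (ENSMUSG00000050737, chromosome 2, 30889471 to 30929863, minus strand), the inducible microsomal prostaglandin E synthase, rose with Ptgs2. It stood at 65.2, 74.1 and 84.5 CPM in control skin, 390, 375 and 160 CPM in LL37 skin and 92.8, 97.5 and 113 CPM in LL37 + RAPA skin. Control + RAPA skin held 82.0, 74.1 and 101 CPM, and the LL37 libraries did not overlap any other group. The log2 fold change was 2.05 in LL37 vs control (SE 0.28, adjusted p = 0.000175, edgeR), or 4.13-fold, and 1.61 in LL37 vs LL37 + RAPA (SE 0.27, adjusted p = 0.00293, edgeR). Without LL37 replicate 3 these were 2.39 and 1.92. All LL37 + RAPA libraries also lay above all control libraries, with a log2 fold change of 0.44 that did not pass the test (adjusted p = 0.329, edgeR), where 36.4% of all genes had no overlap in that comparison.

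In the leukotriene branch, Alox5ap was called in both groups with LL37 against control, and Alox5 passed the same tests by p alone. Alox5ap (ENSMUSG00000060063, chromosome 5, 149264767 to 149288153, plus strand), whose product presents arachidonic acid to 5-lipoxygenase, stood at 21.0, 12.9 and 19.4 CPM in control skin and at 57.6, 72.2 and 53.4 CPM in LL37 skin. LL37 + RAPA skin held 40.8, 69.9 and 48.2 CPM, and control + RAPA skin 10.6, 12.1 and 14.4 CPM. Both LL37 groups lay above both groups without LL37 and overlapped each other. The log2 fold change was 1.78 in LL37 vs control (SE 0.23, adjusted p = 0.000133, edgeR) and 1.58 in LL37 + RAPA vs control (SE 0.23, adjusted p = 0.000814, edgeR). Against LL37 + RAPA the LL37 libraries gave 0.20, with an interval from -0.28 to 0.69. The gene shares 189 exonic bases with Gm19719 on the other strand.

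Alox5 (ENSMUSG00000025701, chromosome 6, 116410077 to 116461178, minus strand), the gene of 5-lipoxygenase itself, stood at 17.1, 16.8 and 16.8 CPM in control skin and at 26.2, 33.2 and 20.9 CPM in LL37 skin. With RAPA it stood at 18.5, 20.5 and 16.8 CPM in control skin and at 27.3, 31.7 and 25.6 CPM in LL37 skin. Both LL37 groups lay above control skin. The log2 fold changes of 0.66 in LL37 vs control (adjusted p = 0.00546, edgeR) and 0.74 in LL37 + RAPA vs control (adjusted p = 0.00824, edgeR) passed the p threshold and stayed under the fold limit of a DEG. LL37 vs LL37 + RAPA gave -0.08, with an interval from -0.42 to 0.26.

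Ltc4s (ENSMUSG00000020377, chromosome 11, 50236461 to 50238616, minus strand), which makes leukotriene C, was not called in any comparison. It stood at 9.0, 7.89 and 5.16 CPM in control skin, 4.08, 4.84 and 7.72 CPM in LL37 skin and 9.25, 11.4 and 8.07 CPM in LL37 + RAPA skin. Control + RAPA skin held 7.16, 6.03 and 6.45 CPM. LL37 libraries overlapped control libraries and lay below all LL37 + RAPA libraries. The log2 fold change in LL37 vs LL37 + RAPA was -0.78 (SE 0.26, adjusted p = 0.0481, edgeR), under the fold limit. Without LL37 replicate 3 it was -1.11 and called, whereas without any 1 of the other 5 libraries the adjusted p in edgeR was 0.0617 to 0.175. LL37 vs control gave -0.40 (adjusted p = 0.246, edgeR). Without LL37 replicate 3 that value was -0.69 (adjusted p = 0.0382, edgeR), under the fold limit. It shares 268 exonic bases with Gm26542 on the other strand, and the strand setting of the counting is not given in the sources used here.

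**Figure D2:**
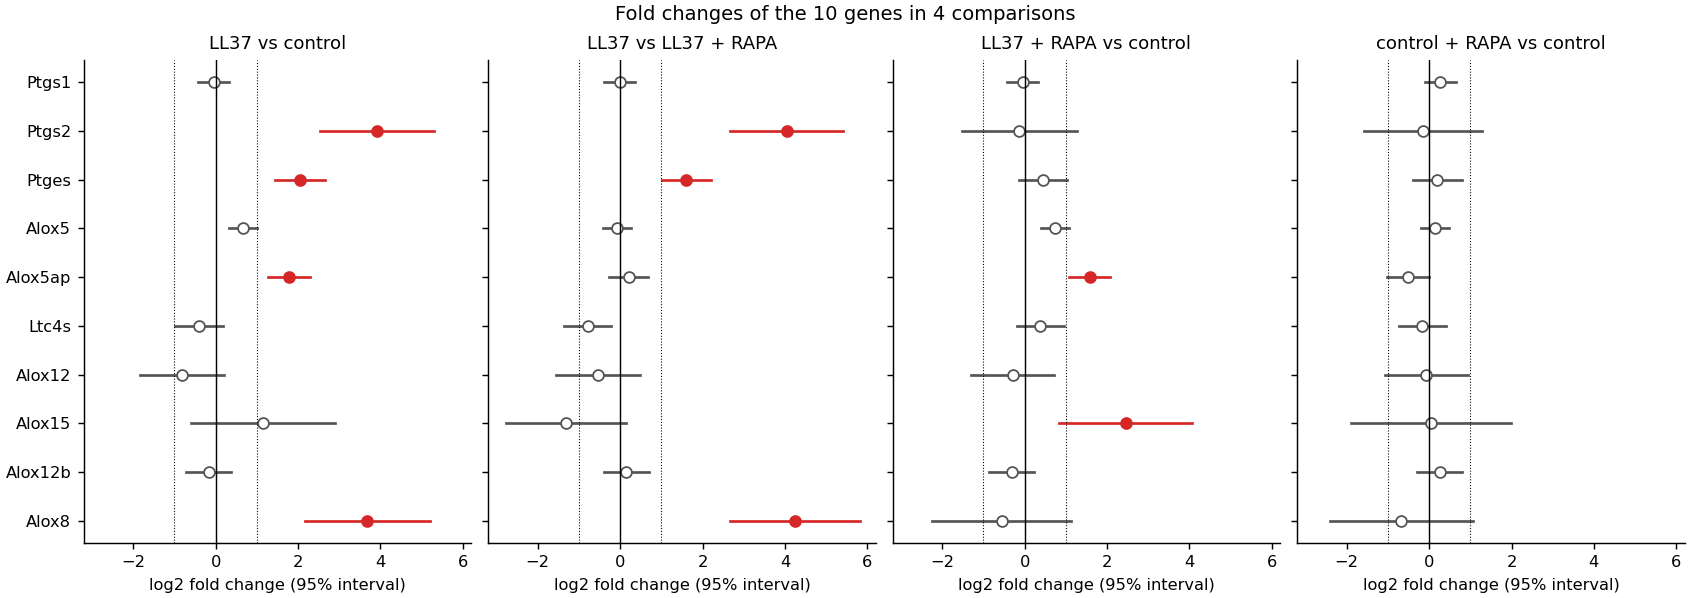
Log2 fold change (horizontal axis) of the 10 genes in 4 comparisons, with the 95% interval from edgeR as a line. Red filled points are DEGs and dotted lines mark the fold limit. Ptgs2, Ptges and Alox8 were called against control and against LL37 + RAPA, Alox5ap in both comparisons with control, and no gene in control + RAPA vs control.

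Alox8 (ENSMUSG00000020891, chromosome 11, 69183932 to 69197843, minus strand) encodes the 8-lipoxygenase of mouse epidermis. It stood at 1.08, 1.23 and 1.05 CPM in control skin and at 22.9, 18.6 and 2.07 CPM in LL37 skin. With RAPA it stood at 0.434, 0.593 and 1.09 CPM in control skin and at 0.854, 0.491 and 0.947 CPM in LL37 skin. All LL37 libraries lay above all others, although replicate 3 did so with 44 counts against 20 to 24 in control libraries. The log2 fold change was 3.68 in LL37 vs control (SE 0.69, adjusted p = 0.00141, edgeR), a 12.9-fold difference, and 4.24 in LL37 vs LL37 + RAPA (SE 0.72, adjusted p = 0.00293, edgeR). Without LL37 replicate 3 these were 4.23 and 4.76.

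Alox12b (ENSMUSG00000032807, chromosome 11, 69156989 to 69169792, plus strand), the barrier lipoxygenase of the epidermis, stood at 109, 143 and 105 CPM in control skin and at 99.9, 63.1 and 154 CPM in LL37 skin. With RAPA it stood at 154, 148 and 125 CPM in control skin and at 101, 101 and 84.6 CPM in LL37 skin. LL37 replicate 2 was the lowest of all 12 libraries, and LL37 replicate 3 was as high as the highest control + RAPA library. No comparison was called, and the interval in LL37 vs control ran from -0.72 to 0.38. Without LL37 replicate 3 the log2 fold change in that comparison was -0.51 (adjusted p = 0.0491, edgeR), under the fold limit. Of 10 tested genes that act with it in the barrier (Aloxe3, Abca12, Tgm1 and others), edgeR and DESeq2 called 0 in LL37 vs control, where 1 had an unadjusted p under 0.05 in edgeR against 50% of all genes. Against LL37 + RAPA both tools called 0 of the 10, with 3 at an unadjusted p under 0.05 against 38% of all genes. In the interaction edgeR called 1 of the 10, Tgm1, at -1.0 (adjusted p = 0.0378), which is named after its value was seen. Of all genes, 2.38% were called in the interaction.

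Alox12 (ENSMUSG00000000320, chromosome 11, 70241457 to 70255353, minus strand), the platelet-type 12-lipoxygenase that epidermis also makes, stood at 20.4, 30.9 and 18.1 CPM in control skin and at 8.11, 4.6 and 26.3 CPM in LL37 skin. Control + RAPA skin held 24.8, 20.4 and 20.9 CPM, and LL37 + RAPA skin 19.8, 20.3 and 16.9 CPM. LL37 replicates 1 and 2 were below all other libraries, whereas replicate 3 lay within the control range. With all libraries the log2 fold change was -0.82 in LL37 vs control (adjusted p = 0.181, edgeR) and -0.53 in LL37 vs LL37 + RAPA. Without LL37 replicate 3 the gene was called lower in both, at -1.83 (adjusted p = 0.000228, edgeR) and -1.57 (adjusted p = 0.00121, edgeR).

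Alox15 (ENSMUSG00000018924, chromosome 11, 70344152 to 70352031, minus strand), the 12/15-lipoxygenase of macrophages and eosinophils, was the least abundant of the 10. It had 9, 3 and 4 counts in the control libraries, 1, 1 and 14 in control + RAPA, 17, 9 and 9 in LL37, and 37, 47 and 23 in LL37 + RAPA. The LL37 + RAPA libraries lay above all others. In LL37 + RAPA vs control the log2 fold change was 2.46 (SE 0.74, adjusted p = 0.0459, edgeR). That call was lost when any of the 6 libraries compared was left out, with values from 2.15 to 3.07. LL37 vs control gave 1.15 (adjusted p = 0.273, edgeR).

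The test of the interaction asks whether RAPA changed a gene differently in LL37 skin than in control skin. It called 2 of the 10, Ptgs2 and Ptges, both with a more negative effect of RAPA in LL37 skin, where 2.38% of all genes were called, 1.73% in the positive and 0.65% in the negative direction. Without the fold limit, again 2 of the 10 passed against 3.28% of all genes, and 4 had an unadjusted p under 0.05 against 22.5%. The difference of the log2 fold changes was -3.89 for Ptgs2 (SE 0.89, adjusted p = 0.0402, edgeR) and -1.81 for Ptges (SE 0.38, adjusted p = 0.033, edgeR). Both calls were lost without any 1 of the libraries other than LL37 replicate 3, and without that replicate 5 of the 10 were called. These were Ptgs2, Ptges, Alox8 at -4.09 (adjusted p = 0.000309, edgeR), Ltc4s at 1.27 (adjusted p = 0.0211, edgeR) and Alox12 at 1.64 (adjusted p = 0.00853, edgeR). With all libraries, Alox8 gave -3.57 (adjusted p = 0.0851, edgeR), Ltc4s 0.95 (adjusted p = 0.158, edgeR) and Alox5ap 0.32 (adjusted p = 0.602, edgeR). DESeq2 called 3 of the 10 in the negative direction, among them Alox8 (adjusted p = 0.00344, DESeq2).

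Compared per length of exon, the genes spanned more than 2 orders of magnitude. In control skin Alox12b and Ptgs1 stood highest, at means of 48.9 and 45.6 CPM per kb, and their libraries overlapped. They were followed by Ptges at 19.0, Alox5ap at 12.5, Ltc4s at 7.25, Alox12 at 5.66, Alox5 at 4.11, Ptgs2 at 0.534, Alox8 at 0.315 and Alox15 at 0.115 CPM per kb. Of the neighbours in this order, Ltc4s and Alox12 overlapped, and so did Ptgs2 and Alox8. In LL37 skin Ptges had the highest mean, at 78.5 CPM per kb (40.8 to 99.3), and its range overlapped those of Ptgs1 (33.0 to 51.5), Alox12b (26.0 to 63.4) and Alox5ap (37.6 to 50.9). Ptgs2 reached a mean of 8.11 CPM per kb there, still below the 44.2 CPM per kb of Ptgs1, and no library of Ptgs2 (2.18 to 12.7) overlapped one of Ptgs1. Lengths are those of all annotated exons of a gene, which can exceed the transcript made in skin.

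**Figure D3:**
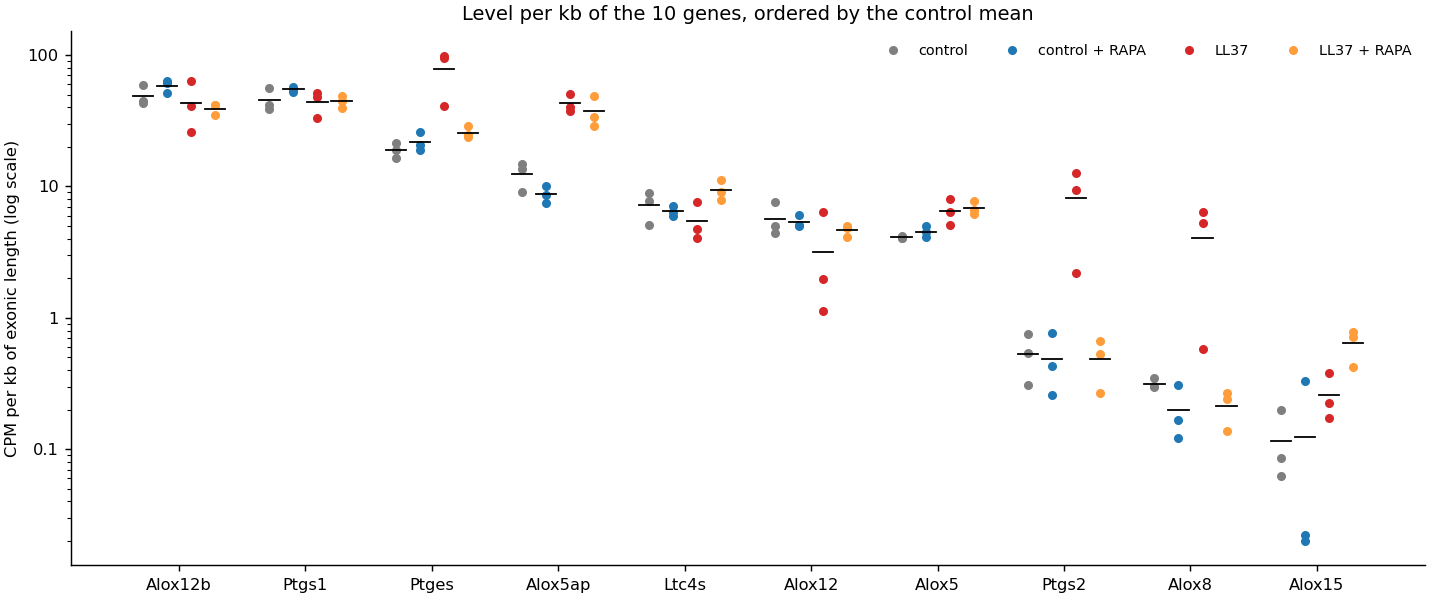
Level per kb of exonic length on a log scale (vertical axis) for the 10 genes, ordered by their control mean (horizontal axis). Points are libraries and short bars are group means. Ptges moved from 19.0 to 78.5 and Ptgs2 from 0.534 to 8.11 CPM per kb between control and LL37 skin, whereas Ptgs1 stood at 45.6 and 44.2.

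Profiles over the 12 libraries were compared as the root-mean-square difference of log2 CPM after centring each gene. The genes most like Ptgs2 were Has3 (0.49), Chil1 (0.53) and Gpr151 (0.56), where the spread of Ptgs2 about its own mean was 1.77. Those most like Ptges were Bnc1 (0.17), Myd88 (0.18) and Tube1 (0.19), those most like Alox8 were Gm20610, Myrfl and Prss27 (0.62 to 0.68), and those most like Alox5ap were Fcgr3 (0.13), Nxpe5 (0.18) and Tyrobp (0.20). The nearest genes to Alox12b were Mboat2, Rps6ka6 and Lipm, at 0.092 to 0.12. Alox12 was nearest to Cfap57, Sh3rf2 and Dlg2, Alox15 to Mmp19, F7 and Has1, Alox5 to Cers2, Spred1 and Ccnd3, and Ltc4s to Tbc1d30, Six5 and Cercam. Among the 10 themselves, Ptgs1 and Alox12b were closest (0.20), with spreads about their own means of 0.24 and 0.37. Ptgs2 was nearer to Alox8 (0.73) than to Ptges (1.01) or Ptgs1 (1.86), where the spread was 1.71 for Alox8 and 0.83 for Ptges. The measure is not scaled to the spread, so it does not separate the size of a change from its pattern. These comparisons are descriptions over libraries that share groups and depth.

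Around these enzymes, 53 further genes of the pathway were found in the table and 48 were tested: phospholipases A2, other synthases, export and inactivation genes, and receptors. In LL37 vs control, 8 were called higher and 5 lower, or 13 of 48, against 19.5% of all genes. Against LL37 + RAPA, 4 were called higher and 1 lower in LL37 skin, against 10.1% of all genes, and this count ranged from 2 without LL37 replicate 1 or LL37 + RAPA replicate 1 to 10 without LL37 replicate 3, with 3 without LL37 + RAPA replicate 2. The median log2 fold changes of the 48 were 0.10 and 0.03.

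The receptors held most of the calls, with 6 of 13 higher and 1 lower in LL37 vs control, against 8.73% and 10.8% of all genes. Fpr2, a receptor of lipoxin and of LL37 itself, stood at 1.40, 0.359 and 3.32 CPM in control skin and at 51.1, 49.3 and 4.90 CPM in LL37 skin. Its log2 fold change was 4.37 against control (adjusted p = 0.00274, edgeR) and 2.44 against LL37 + RAPA (adjusted p = 0.0469, edgeR), where the libraries overlapped. Ptgir, the prostacyclin receptor, and Ptgdr, a receptor of prostaglandin D, were higher than in control skin by 1.95 and 1.65. Ptger3, a receptor of prostaglandin E, stood at 13.3, 6.10 and 8.17 CPM in control skin, 1.74, 2.15 and 3.20 CPM in LL37 skin and 10.1, 12.4 and 5.09 CPM in LL37 + RAPA skin. All its LL37 libraries were below those of both other groups, with a log2 fold change of -1.95 in each comparison (adjusted p = 0.00168 and 0.00509, edgeR).

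Ltb4r2, a receptor of leukotriene B and related lipids that keratinocytes carry, stood at 17.7, 22.7 and 17.8 CPM in control skin, 60.5, 60.7 and 33.4 CPM in LL37 skin and 18.7, 21.7 and 19.2 CPM in LL37 + RAPA skin. Its LL37 libraries lay above both other groups, and its log2 fold change in LL37 vs LL37 + RAPA was 1.38 (adjusted p = 0.00173, edgeR). Ltb4r1, the high-affinity receptor of leukotriene B, and Ptger2, a further receptor of prostaglandin E, were also called higher in LL37 vs control, at 1.44 and 1.07, and both are named after their values were seen.

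Of 13 phospholipases, Pla2g5, a secreted enzyme, was the only one called higher in LL37 vs control, at a log2 fold change of 1.85 (adjusted p = 0.000704, edgeR). It stood at 1.51, 2.10 and 1.11 CPM in control skin, 7.08, 6.19 and 3.82 CPM in LL37 skin and 2.32, 2.01 and 3.29 CPM in LL37 + RAPA skin, with no overlap of LL37 with either group. Pla2g12a was the only one called lower, at 52.5, 51.0 and 54.1 CPM in control and 23.1, 23.0 and 20.7 CPM in LL37 skin. Of all genes, 8.73% were called higher and 10.8% lower in LL37 vs control. Against LL37 + RAPA, Pla2g5 (1.16) and Pla2g2d (1.71) were called higher in LL37 skin, where 4.33% of all genes were called higher.

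Among 12 other synthases, 0 were called higher in LL37 vs control by edgeR and by DESeq2. In that comparison, edgeR called 8.73% of all genes higher and 10.8% lower. Ptgds, which makes prostaglandin D, and Ephx2, an epoxide hydrolase, were called lower, both at -1.50. Lta4h, which makes leukotriene B from the product of 5-lipoxygenase, stood at 42.8, 40.8 and 39.8 CPM in control skin and 45.3, 35.9 and 47.3 CPM in LL37 skin, and is named after its values were seen. Of 10 export and inactivation genes, Cyp4f18, which inactivates leukotriene B in neutrophils, was called higher at 4.59 (adjusted p = 0.00444, edgeR), and Dpep1, which cleaves leukotriene D, lower at -2.42 (adjusted p = 0.000437, edgeR). Cyp4f18 stood at 1.08, 0.154 and 5.58 CPM in control skin, 66.6, 90.1 and 7.40 CPM in LL37 skin and 5.22, 15.2 and 15.2 CPM in LL37 + RAPA skin. Its level in LL37 replicate 3 lay within the range of LL37 + RAPA skin. Dpep1 stood at 44.2, 23.7 and 40.5 CPM in control skin, 4.68, 4.17 and 11.3 CPM in LL37 skin and 16.5, 12.2 and 14.4 CPM in LL37 + RAPA skin, so that these 3 groups did not overlap. Against LL37 + RAPA, edgeR called 0 of the other synthases and 0 of the export and inactivation genes. There, 4 and 5 of them had an unadjusted p under 0.05, where 38% of all genes did, and DESeq2 called 0 and 1.

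In LL37 + RAPA vs control, 4 of the 48 pathway genes were called higher and 2 lower, against 6.49% of all genes. The receptors Ptgir (1.53) and Ptger2 (1.47) and the leukotriene-cleaving enzymes Ggt5 (1.22) and Dpep2 (1.08) were higher, and Dpep1 (-1.33) and Pla2g2d (-1.90) were lower. These 6 are named after their values were seen, and without LL37 + RAPA replicate 2 the count was 0, without control replicate 3 it was 2, and without control replicate 2 or LL37 + RAPA replicate 3 it was 3. In control + RAPA vs control, edgeR and DESeq2 called 0 of the 48, and 3 had an unadjusted p under 0.05 in edgeR, against 8.65% of all genes. The interaction called 2 of the 48, Ephx2 (1.09) and Ptger3 (2.28), in the positive and 1, Ltb4r2 (-1.43), in the negative direction. Of all genes, 1.73% and 0.65% were called in these directions.

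**Figure D4:**
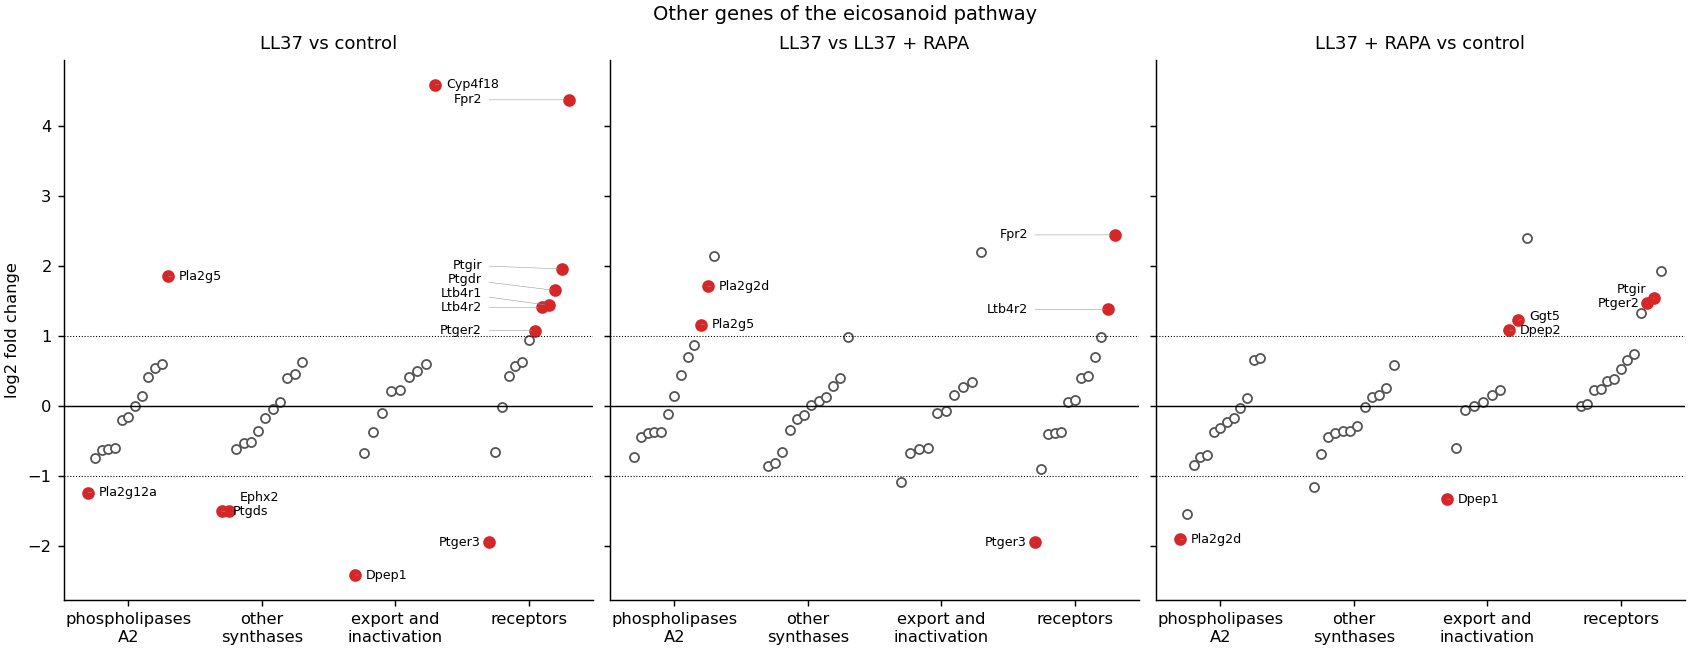
Log2 fold change (vertical axis) of the 48 other tested pathway genes by list (horizontal axis, ordered by value within each list) in 3 comparisons. Red filled points are DEGs and are named, and dotted lines mark the fold limit. Receptors hold 6 of the 8 genes called higher in LL37 vs control.

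Markers of cell types also differed between the groups, some lists higher in LL37 skin, some lower and some mixed. Of all genes, 8.73% were called higher and 10.8% lower in LL37 vs control. Against LL37 + RAPA these shares were 4.33% and 5.8%. Neutrophil markers (8 of 10 tested) were all called higher in LL37 vs control, and their summed level was 21.8 to 94.9 CPM in control skin, 34.0 to 56.6 CPM in control + RAPA skin, 1877, 2720 and 290 CPM in LL37 skin and 155 to 506 CPM in LL37 + RAPA skin. Ly6g, the defining marker, was at 0 in control replicates 1 and 2 and in all control + RAPA libraries. It stood at 1.36, 0.980 and 0.471 CPM in LL37 skin and at 0.142, 0.123 and 0.406 CPM in LL37 + RAPA skin. LL37 replicate 3 thus lay within the range of LL37 + RAPA skin for the sum. For Ly6g it lay only slightly above that range, at 0.471 against 0.406 CPM, and LL37 + RAPA replicates 1 and 2 were at the floor of 3 counts. The sum of the 7 basal epidermis markers was likewise highest in LL37 skin, at 21454 to 22116 CPM, against 12642 to 17505 CPM in control, 12626 to 15147 CPM in control + RAPA and 15317 to 16833 CPM in LL37 + RAPA skin. Krt5 and Krt14 carried most of this sum. Krt15 went the other way, at 745, 1258 and 1362 CPM in LL37 and 2135, 2807 and 2078 CPM in control skin. Of these 7, 2 were called higher and 1 lower in LL37 vs control, and 0 against LL37 + RAPA. There, 4 had an unadjusted p under 0.05 in edgeR, where 38% of all genes did, and DESeq2 called 0. The part of neutrophils or of basal epidermis in the levels of Ptgs2, Ptges, Alox8, Fpr2 and Cyp4f18 was not tested.

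Adipocyte markers were lowest in LL37 skin, at summed levels of 424 to 1025 CPM against 3187 to 5089 CPM in control and 3322 to 3425 CPM in LL37 + RAPA skin. In LL37 skin 7 of 8 were called lower than in control and 8 of 8 lower than in LL37 + RAPA skin. Ptger3 and Ltc4s were also lower in LL37 than in LL37 + RAPA libraries, and the part of adipocytes or of muscle in their levels was not tested.

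Macrophage markers summed to 790 to 1372 CPM in control skin, 2176 to 2478 CPM in LL37 skin and 1798 to 2925 CPM in LL37 + RAPA skin. The sums of both LL37 groups overlapped through Lyz2, at 606, 989 and 633 CPM in LL37 and 926, 1699 and 1094 CPM in LL37 + RAPA skin. Of the 10 markers, 4 were called higher in LL37 skin against control and 2 against LL37 + RAPA skin. In the latter comparison 6 of 10 had no overlap, against 38.3% of all genes, among them C1qa with 296 to 345 against 184 to 200 CPM. The part of macrophages in the levels of Alox5ap and Alox5 was not tested.

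Platelet markers (6 of 8 tested) had 2 called higher and 2 lower in LL37 vs control. Pf4 carried most of their sum, at 26.5, 9.48 and 13.2 CPM in control and 226, 256 and 169 CPM in LL37 skin. Ppbp stood at 0.108, 0.154 and 0.369 CPM in control and 13.2, 16.3 and 11.2 CPM in LL37 skin. Gp1bb stood at 18.1, 19.6 and 13.5 CPM in control and 6.69, 4.23 and 12.7 CPM in LL37 skin. Gp1ba went from 3.29, 2.15 and 1.21 CPM in control to 0.871, 0.919 and 0.659 CPM in LL37 skin. Of 10 mast cell markers, from cells that express Ltc4s, 1 was called higher and 1 lower both against control and against LL37 + RAPA, with a median log2 fold change of -0.70 in the latter. Hdc stood at 280, 265 and 17.9 CPM in LL37 and 9.20 to 21.6 CPM in LL37 + RAPA skin, and Mrgprb2 at 1.14, 0.735 and 3.91 CPM in LL37 and 8.82 to 9.51 CPM in LL37 + RAPA skin. Of 8 eosinophil markers 3 were tested, with 1 called higher and 1 lower in LL37 vs control, and Epx, Ear1 and Ear6 were at or under the floor in every library. Siglecf stood at 0.324, 0.308 and 0.474 CPM in control, 0.435, 0.919 and 0.659 CPM in LL37 and 0.854, 1.76 and 1.22 CPM in LL37 + RAPA skin, beside Alox15. Ccr3 stood at 1.1 to 1.2 CPM in the 3 libraries of LL37 skin and at or under the floor in control skin, and Ear2 at 3.69 to 6.63 CPM in control and 0.708 to 2.87 CPM in LL37 skin. The part of platelets, mast cells and eosinophils in the levels of Alox12, Ltc4s and Alox15 was not tested. Differentiated epidermis markers summed to 20851 to 25576 CPM in control skin, to 22957, 15344 and 29732 CPM in LL37 skin and to 17413 to 19947 CPM in LL37 + RAPA skin. In LL37 skin these sums had the order of Alox12b, Alox12, Ptgs1 and Gp1bb, with replicate 2 lowest and replicate 3 highest. The part of differentiated epidermis in the levels of these genes was not tested.

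**Figure D5:**
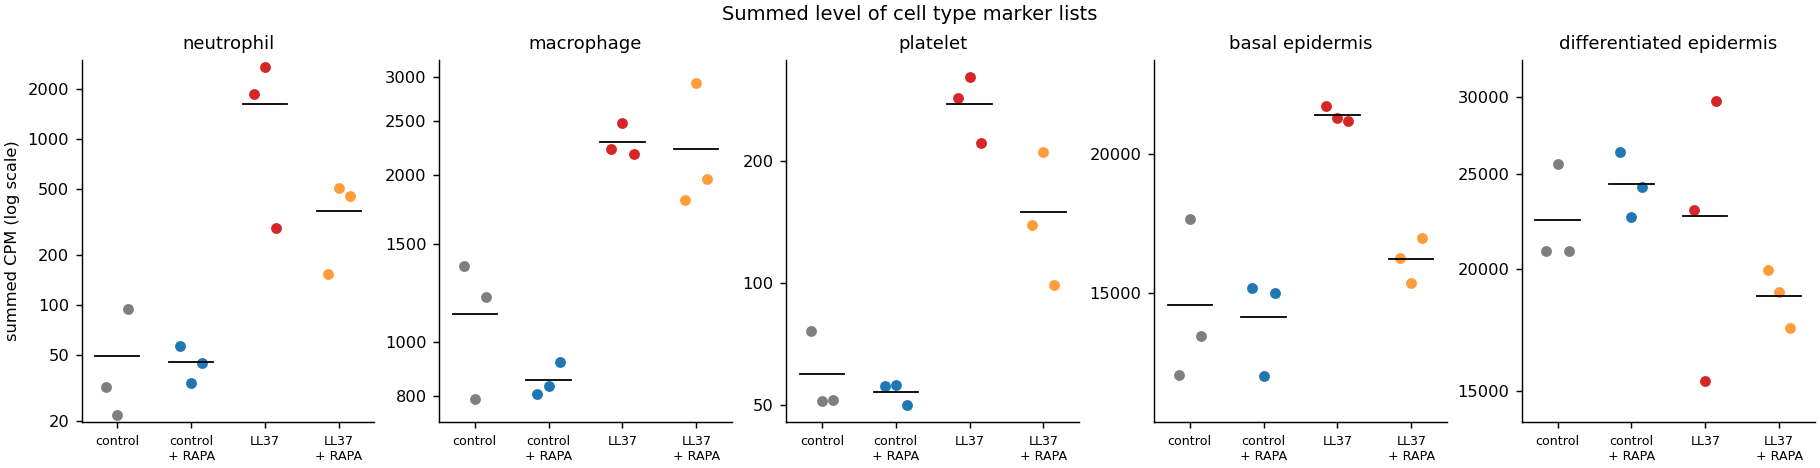
Summed level of 5 lists of cell type markers in CPM on a log scale (vertical axis, with its own range for each list) in the 4 groups. Points are libraries, drawn in the order of replicates 1, 2 and 3, and bars are group means. Neutrophil markers reached 1877 and 2720 CPM in LL37 replicates 1 and 2 and 290 CPM in replicate 3.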

How the data were processed

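Gene expression was measured by RNA sequencing in 12 mouse skin libraries, 3 per group. The authors deposited raw read counts per Ensembl gene, without normalization and without pooling. The submitters' processing notes name HISAT2 2.0.5, StringTie 1.3.3b, featureCounts 1.5.0-p3, DESeq2 1.16.1 and the build mm10, whereas the methods of the study name HTSeq for assigning reads to genes, so the counter is uncertain. Gene names, lengths and positions are from GENCODE M21 (52403 of 52636 genes had a symbol), and promoters are from RefSeq.

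The 12 libraries entered 1 model in edgeR 4.0.16 (R 4.3.3), with TMM factors, filterByExpr by group and the quasi-likelihood F-test. The ratio of Ptgs2 to Ptgs1 was compared by exact permutation tests in scipy 1.17.1. CPM are normalized by TMM, profiles used a prior count of 2, and the ratio of Ptgs2 to Ptgs1 used 0.5 added counts. With 15734559 to 23271784 counts per library, 3 counts were taken as the floor. The adjusted p of edgeR, without the fold limit, was tried on simulated data with a single spread for all genes. In LL37 vs control, 100 of 100 4-fold and 62 of 100 2-fold changes were recovered, with 3 false calls. For LL37 vs LL37 + RAPA the numbers were 99, 67 and 6, and for the interaction 95, 18 and 9. Only genes above a minimum mean count were changed, and no simulated replicate stood apart. These rates therefore need not hold for genes with a wide spread, such as Ptgs2 and Alox8 (SE 0.63 and 0.69 in LL37 vs control).

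Alternatives were other normalizations, filters, DESeq2 1.42.0, unadjusted p, no fold limit, fits restricted to the groups compared, a replicate block, and leaving out each library in turn. Genes named beyond the 10 are the 3 DEGs per direction with the largest fold change in each pathway list and main comparison, and the 3 nearest profiles of each gene, which for Ptgs1 are not reported here. The 10 genes, the lists and the markers were chosen with earlier results of these data known. Replicates are independent samples by the methods of the study. Oxer1 had no match, and Pla2g2a, Pla2g10, Ggt1, Ptgdr2 and Cysltr2 did not pass the filter. The study's other experiments were not analysed here.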

Additional observations from a re-analysis of the deposited data

Results flagged for a closer look

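With 3 libraries per group, the test of the interaction called Ptges at -1.81 and Ptgs2 at -3.89 on the log2 scale. These values are the effect of RAPA in LL37 skin minus that in control skin (adjusted p = 0.033 and 0.0402, edgeR). Both calls were lost with the replicate block (adjusted p = 0.064 and 0.0889, edgeR). They were also lost when any library other than LL37 replicate 3 was left out. Each gene was called in 9 of 21 alternatives. In LL37 skin without RAPA both genes were higher than with RAPA in 3 of 3 libraries, whereas control libraries with and without RAPA overlapped.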

How the results depend on the processing

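In LL37 vs control, Ptgs2, Ptges and Alox5ap were called in 16 of 16 alternatives and Alox8 in 15 of 15. In LL37 vs LL37 + RAPA, Ptgs2 and Ptges were called in 16 of 16 and Alox8 in 15 of 15, and Alox5ap was called in 16 of 16 in LL37 + RAPA vs control. Alox15 in that last comparison was called in 8 of 15. In the interaction, Ptgs2 and Ptges were called in 9 of 21 each, and Alox8 in 4 of 20. Without a fold limit, 20, 14 and 11 pathway genes passed for LL37 against control, LL37 against LL37 + RAPA and LL37 + RAPA against control, where the fold limit left 13, 5 and 6. A fit of only the groups compared called 3 pathway genes in LL37 vs LL37 + RAPA. In LL37 + RAPA vs control, 1 of the 10 genes was called instead of 2 with a filter of 10 counts in every library, which removes Alox15. Deviations of same-numbered replicates from their group means had correlations of -0.188 to 0.263 between groups. With 3 libraries per group, these values cannot exclude a pairing or a shared batch. With the replicate block, 1 of the 10 was called in LL37 + RAPA vs control and 0 in the interaction, and no other count of calls moved by over 1.5 times.

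Leaving out each library in turn, the calls among the 10 ranged from 3 to 5 in LL37 vs LL37 + RAPA, were 1 throughout in LL37 + RAPA vs control, and ranged from 0 to 5 in the interaction. Pathway calls ranged from 2 to 10 in LL37 vs LL37 + RAPA and from 0 to 6 in LL37 + RAPA vs control (0 without LL37 + RAPA replicate 2, 2 without control replicate 3, 3 without control replicate 2 or LL37 + RAPA replicate 3). The direction changed only for values that passed no test. With library size only, which shifts the median of all genes by 0.087 and 0.13 in LL37 vs control and LL37 + RAPA vs control, Ptgs1 gave 0.043 and 0.088, and Alox5 gave 0.037 in the interaction. Ptgs1 in LL37 vs LL37 + RAPA gave 0.0043 with DESeq2 size factors and with DESeq2. With a library left out, the ranges in LL37 vs control were -0.15 to 0.16 for Ptgs1 and -0.51 to 0.13 for Alox12b. In LL37 vs LL37 + RAPA they were -0.13 to 0.17 for Ptgs1, -0.26 to 0.070 for Alox5 and -0.23 to 0.42 for Alox12b. In LL37 + RAPA vs control they were -0.15 to 0.12 for Ptgs1 and -0.41 to 0.21 for Ptgs2. In control + RAPA vs control they were -0.67 to 0.18 for Ptgs2, -0.23 to 0.17 for Alox12 and -2.33 to 0.66 for Alox15, and in the interaction -0.21 to 0.11 for Alox5. Depth limits Alox15, which had 1 to 47 counts per library.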
